A study of Mus musculus with 5 samples.

Results

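Kit, Il7r, Tmem176a and Tmem176b are 4 of the 31253 genes counted in these mouse single-cell libraries. They were picked by name, and each was followed through the gated lymphocyte classes of every library that has a count matrix. Kit encodes the receptor tyrosine kinase for stem cell factor. Il7r encodes the alpha chain that the IL-7 receptor shares with the receptor for TSLP. Tmem176a and Tmem176b encode closely related multi-pass membrane proteins that act as cation channels in intracellular membranes.

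Innate lymphoid cells (ILCs) are tissue lymphocytes without a rearranged antigen receptor. ILC1 and NK cells use T-bet or Eomes, ILC2 use GATA3, and ILC3 share the IL-17 and IL-22 programme of type 17 T cells. IL-7 signals through IL-7R alpha, the common gamma chain, JAK1, JAK3 and STAT5 and keeps ILCs and resting T cells alive. Kit is widely used to recognise ILC3 and ILC precursors, and mast cells carry it at high levels. In mouse lymphocytes the Tmem176 pair is known from ILC3 and type 17 T cells.

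The study asked, from its title, how intestinal ILC3 relate to the kidney after unilateral ureteral obstruction (UUO), a model of renal fibrosis in which 1 ureter is tied. All mice were male and 8 to 10 weeks old. The kidney libraries analysed were 1 from mice labelled B6.Cg-Pdcd1tm1.1Shr/J, the PD-1 knockout strain, at day 3 after UUO (KO-labelled), and 1 from wild-type mice at day 14 after UUO. The small intestine libraries were 1 from wild-type mice at day 3 after UUO and 1 from sham-operated wild-type mice. Cells were sorted as ILCs (kidney) or ILC3 (intestine) and captured with the BD Rhapsody system. The number of mice behind a library is not given, and each group had 1 library, so no test between groups was possible. Every interval below is a 95% interval for counting error only, exact Poisson for levels and exact binomial for shares and ratios. A wild-type kidney library at day 3 has 5444 barcodes and was not analysed here.

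After filtering, the KO-labelled library kept 6960 cells and the wild-type kidney library 5212. The intestinal UUO library kept 4946 cells and the sham library 3501. Total counts of unique molecular identifiers (UMIs) lay between 8717372 and 16466027 per library, and median UMIs per kept cell between 1824 and 2177. Although the kidney cells are labelled as innate lymphoid cells, 59.4% (KO-labelled) and 58.9% (wild type) carried at least 2 UMIs of the CD3 genes, the defining chains of T cells. Cells with no CD3 UMI numbered 1773 (KO-labelled) and 1630 (wild type). Pdcd1 itself did not separate the labels: it stood at 189.6 CPM (a gene's UMIs scaled to a fixed total per library or class; 183 to 196) in the KO-labelled library and 126.7 CPM (119.9 to 133.7) in the wild-type kidney library. Where the deletion lies relative to the counted end of the transcript is not given, so this level does not check the label. The intestinal libraries shared 158 barcodes, against 22 to 27 for the other pairs that could be compared. The epithelial gate held 83 of them among 672 cells (UUO) and 77 among 234 cells (sham). No barcode file was used for the KO-labelled library.

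Cells were gated on marker UMIs, none of them from the 4 genes. T cells needed at least 2 CD3 UMIs. Every other class needed no CD3 UMI, at least 2 markers of the class and more markers of it than of any other class. A level is the sum of a gene's UMIs over a class as CPM, ranked among classes of at least 50 cells. Smaller gates are described with their cell number. Levels are compared between classes and libraries for 1 gene at a time, never between genes.

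The Tmem176 genes sit head to head on mouse chromosome 6 (GRCm38). Tmem176b (ENSMUSG00000029810) spans 48833818 to 48841496 on the minus strand, and Tmem176a (ENSMUSG00000023367) spans 48840919 to 48847071 on the plus strand. Their annotated 5' ends overlap by 578 bases, and their 3' ends, which 3'-end capture counts, point away from each other and lie 13254 bases apart. No source used here says whether the counting used strand. RefSeq (GRCm38.p6) annotates 2 starts for Tmem176a and 3 for Tmem176b. Between the closest of them lie 108 bases, shown because each gene has an annotated start at one edge of them, and because both are read out together below. They are plus strand, chr6:48841375-48841482, and 63.9% G and C:
From the Tmem176b start to the Tmem176a start: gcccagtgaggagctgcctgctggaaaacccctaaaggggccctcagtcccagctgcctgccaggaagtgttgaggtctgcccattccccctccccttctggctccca
Windows of 300 bases around each annotated RefSeq start (250 before, 50 after) were searched on both strands for TTCNNNGAA, the STAT palindrome, which occurs in 8.30% of 32851 such mouse windows, and for AGGTCA, a half-site shared by many nuclear receptors, which occurs in 16.3%. AGGTCA was found in none of the windows of the 4 genes. TTCNNNGAA was not found in the 2 Tmem176a windows, the 3 Tmem176b windows or the 2 Kit windows. The 1 Il7r window holds TTCNNNGAA. A missing match says only that these letters are not in the window. Kit (ENSMUSG00000005672) lies on chromosome 5 from 75574916 to 75656722 on the plus strand, and Il7r (ENSMUSG00000003882) on chromosome 15 from 9505788 to 9530176 on the minus strand.

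**Figure D1:**
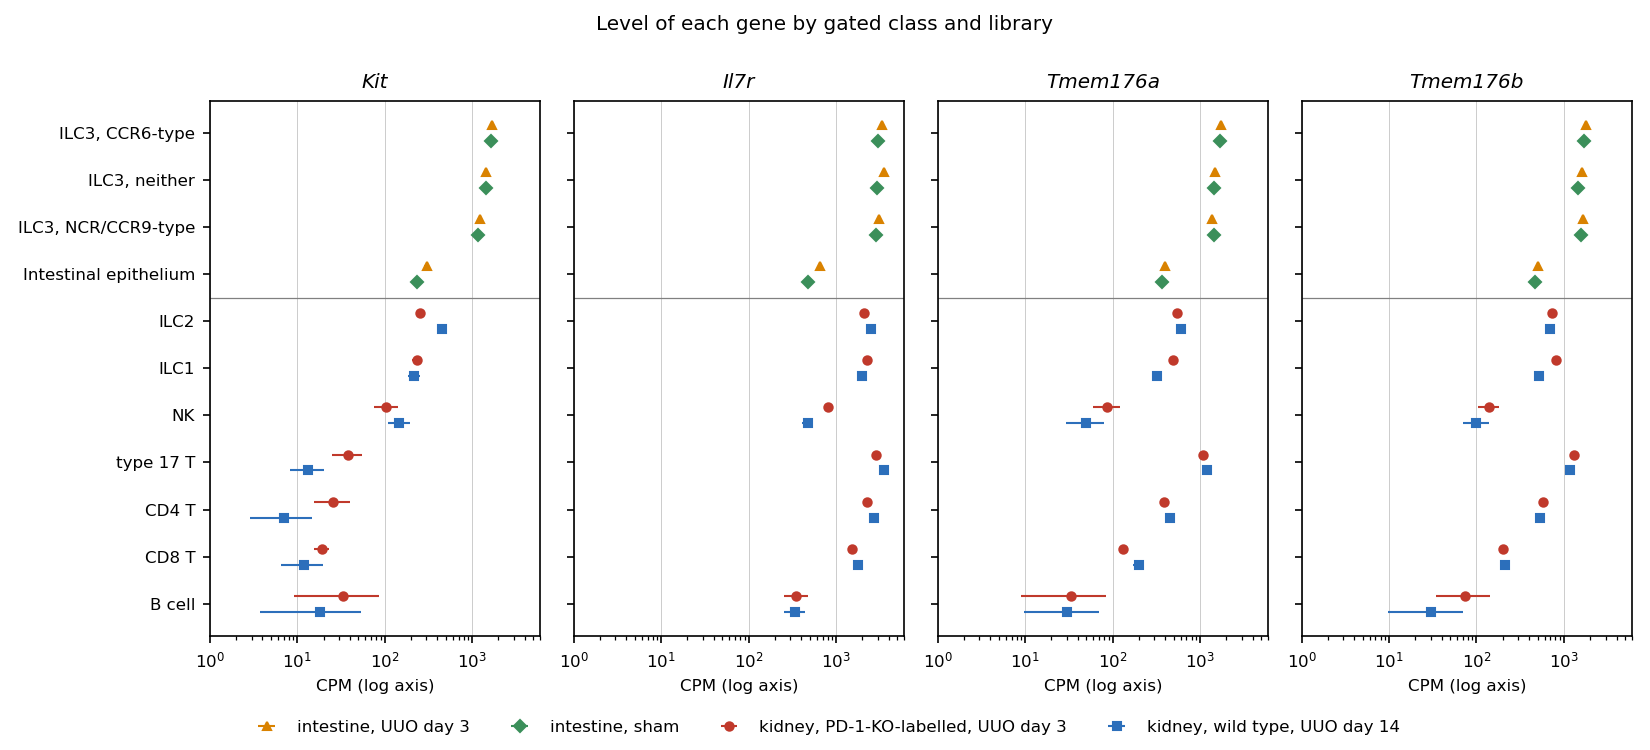
Level of each gene (CPM, log axis) by gated class (rows) and library (colours), with points for the summed level and bars for the exact Poisson 95% interval. Kit is highest in the intestinal ILC3 subsets, at 1155 to 1694 CPM, and stands at 7.14 to 37.7 CPM in the kidney CD4, CD8 and type 17 T cells, whereas Il7r and both Tmem176 genes are highest in type 17 T cells among kidney classes of at least 50 cells.

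Intestinal ILC3 carried all of these genes at high levels. In the ILC3 gate Kit stood at 1493 CPM (1466 to 1521) after UUO and 1437 CPM (1407 to 1468) after sham surgery. Il7r stood at 3345 CPM (3304 to 3386) after UUO and 2968 CPM (2925 to 3012) after sham surgery. Tmem176a stood at 1559 CPM after UUO and 1544 CPM after sham surgery, and Tmem176b at 1693 CPM (UUO) and 1586 CPM (sham). The UUO library stood at 1.04 times the sham library for Kit, 1.13 times for Il7r, 1.01 times for Tmem176a and 1.07 times for Tmem176b. Past a 1.5-fold difference, 4.58% of the 8802 genes with at least 100 UMIs were called, 3.15% higher and 1.43% lower after UUO, and none of the 4 was among them. The log2 ratio of UUO over sham was 0.17 for Il7r (0.14 to 0.20), inside the range of -0.38 to 0.46 that holds the middle 90% of genes. Without the shared barcodes the Il7r ratio was again 0.17 and the Kit ratio 0.05.

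Levels of these genes differed among the ILC3 subsets. CCR6-type cells, the lymphoid tissue inducer-like ILC3, had the most Kit, 1694 CPM after UUO and 1622 CPM after sham surgery. NCR/CCR9-type cells, which carry natural cytotoxicity receptor or gut-homing markers, had the least, 1213 CPM (UUO) and 1155 CPM (sham). The intervals of these subsets lay apart in both libraries. Tmem176a was also higher in CCR6-type than in NCR/CCR9-type cells, with 1725 CPM (UUO) and 1676 CPM (sham) in CCR6-type cells against 1363 CPM (UUO) and 1458 CPM (sham) in NCR/CCR9-type cells. Tmem176b stood between 1598 and 1768 CPM over the subsets after UUO and between 1462 and 1680 CPM after sham surgery. In both libraries it was highest in CCR6-type cells, whose interval lay apart from that of cells with neither set of markers. Il7r stood between 2891 and 3032 CPM across the subsets of the sham library. In the UUO library it reached 3518 CPM in cells with neither set of markers, against 2951 CPM in the same cells of the sham library, a log2 ratio of 0.25 (0.20 to 0.30). The Il7r intervals of the subsets lay apart in the UUO library and overlapped in the sham library. Tmem176a in NCR/CCR9-type cells was the only one of these 12 subset ratios whose whole interval lay below 0, at -0.10 (-0.18 to -0.02).

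Most ILC3 held a UMI of each gene. With every cell thinned to 1000 UMIs, Kit was seen in 71.7% of ILC3 after UUO and 69.9% after sham surgery (87.6% (UUO) and 86.8% (sham) before thinning). Il7r was seen in 92.5% (UUO) and 90.9% (sham), Tmem176a in 74.0% (UUO) and 74.7% (sham), and Tmem176b in 76.6% (UUO) and 74.8% (sham). The epithelial gate, a cell type that was not sorted for, was used to gauge the free RNA of these libraries. Its own transcripts were not told apart from free RNA. There Kit stood at 302 CPM after UUO and 235 CPM after sham surgery, and Il7r at 652 CPM (UUO) and 472 CPM (sham), which is 15.9% to 20.2% of the ILC3 levels. Tmem176a there stood at 25.5% (UUO) and 24.1% (sham) of its ILC3 level, and Tmem176b at 29.5% in both libraries. Its median depth was 2375 UMIs (UUO) and 1858 UMIs (sham), and Kit was seen in 36.2% (UUO) and 29.9% (sham) of its thinned cells. The epithelial level was higher after UUO for Il7r, with a log2 ratio of 0.47 (0.33 to 0.60), and for Kit, at 0.36 (0.17 to 0.56). For Tmem176a and Tmem176b the interval spanned 0. The monocyte/macrophage gate, also not sorted for, had 94 cells (UUO) and 43 cells (sham). Its Kit level was 7.09% (UUO) and 30.4% (sham) of the ILC3 level, and its Il7r level 14.0% (UUO) and 20.4% (sham). Tmem176a there stood at 21.3% (UUO) and 21.7% (sham), and Tmem176b at 20.5% (UUO) and 29.6% (sham). These gauges thus differ, and the part of free RNA in the smaller Il7r and Kit ratios of ILC3 was not tested. A small ILC1 gate in the sham library, 56 cells, had 997 CPM of Kit and 1713 CPM of Il7r, both below the ILC3 of that library.

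The ligands of these receptors were almost absent from intestinal ILC3. Il7 and Tslp gave 4 and 1 UMIs in UUO ILC3 and 8 and 1 UMIs in sham ILC3. Kitl, which encodes stem cell factor, stood at 3.44 CPM (UUO) and 3.15 CPM (sham) in ILC3. In the epithelial gate Kitl reached 71.2 CPM (UUO) and 86.2 CPM (sham). Of the 17 of 20 IL-7 receptor pathway genes with enough UMIs in ILC3, none passed 1.5-fold, where 4.58% of all genes passed in either direction, and their median log2 ratio was -0.06 against 0.00 for all genes. Among them Cish, a STAT5 target that dampens cytokine receptors, stood at 125 CPM after UUO and 152 CPM after sham surgery. Of 18 of 23 Kit pathway genes, Spry1, an inhibitor of receptor tyrosine kinase signalling, passed upward with 26.7 CPM (UUO) and 17.2 CPM (sham), and none passed downward. A further list was written as neighbours of the Tmem176 pair, but the positions of its genes were not checked. Of its 9 genes with enough UMIs, Aoc1, an amine oxidase gene of gut epithelium, passed upward with 31.0 CPM (UUO) and 15.9 CPM (sham). Each of these 2 lists thus had 1 gene upward, beside 3.15% of all genes. The medians were -0.02 for the Kit pathway and -0.08 for the neighbour list.

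**Figure D2:**
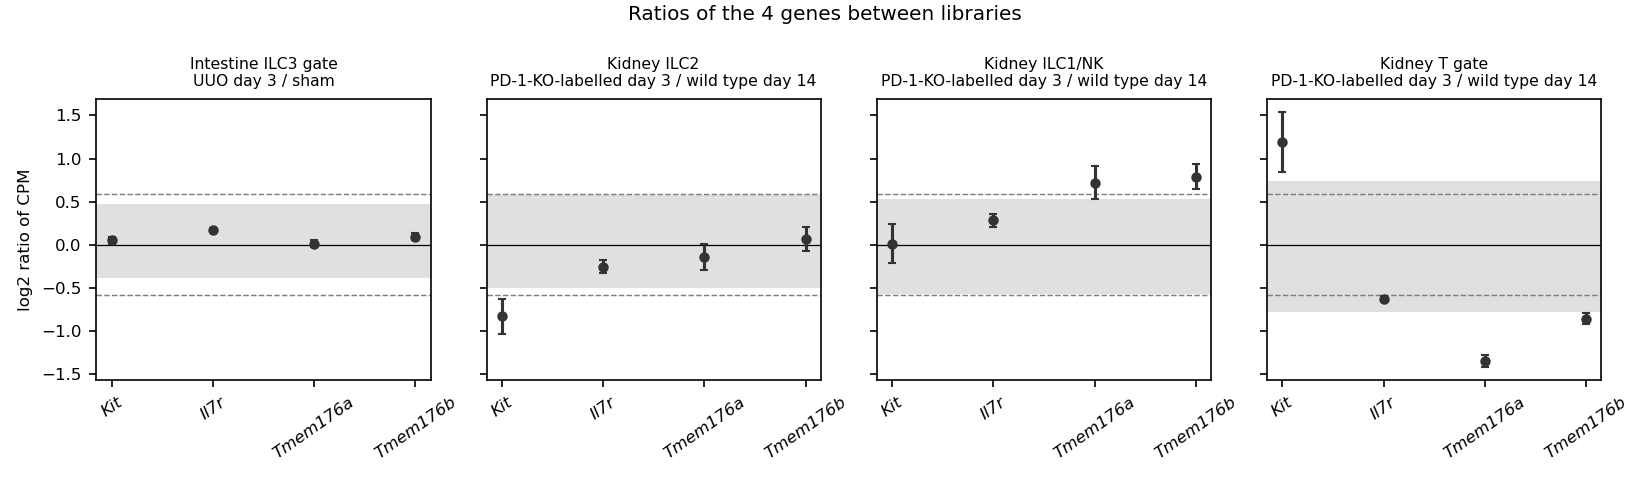
Log2 ratio of CPM (vertical axis) for the 4 genes, UUO over sham for the intestinal ILC3 gate and PD-1-knockout-labelled day 3 over wild-type day 14 for the kidney gates, with exact 95% counting intervals as bars, the middle 90% of all genes as a grey band and 1.5-fold as dashed lines. The ILC3 ratios lie between 0.01 and 0.17, and Kit stands at -0.83 in ILC2, Tmem176b at 0.79 in ILC1/NK cells and Tmem176a at -1.35 in the T gate.

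In the kidney, genotype label and day differ together between the libraries and cannot be told apart. ILC2 were 496 cells in the KO-labelled library and 458 in the wild-type library. Kit stood at 254 CPM (228 to 282) in ILC2 of the KO-labelled library and 451.5 CPM (413 to 493) in wild-type ILC2, a log2 ratio of -0.83 (-1.03 to -0.63). Background for this gate was 3.15% of 3995 genes past 1.5-fold on the lower side, and 1.001% of genes had a lower ratio than Kit. After thinning, 18.2% of ILC2 in the KO-labelled library and 30.4% of wild-type ILC2 held a Kit UMI (35.7% (KO-labelled) and 45.2% (wild type) before thinning). Cpa3, a mast cell protease gene, had 122 UMIs in ILC2 of the KO-labelled library and 28 UMIs in wild-type ILC2. The part of mast cell RNA in the Kit levels was not tested.

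The other genes differed less in ILC2. Il7r stood at 2110 CPM in the KO-labelled library and 2515 CPM in the wild-type library, Tmem176a at 546 CPM (KO-labelled) and 605 CPM (wild type), and Tmem176b at 728 CPM (KO-labelled) and 694 CPM (wild type). The Tmem176 intervals spanned a ratio of 1. The gate markers Il1rl1, the IL-33 receptor gene, and Gata3 were present, Il1rl1 at 1755 CPM in the KO-labelled library and 1860 CPM in the wild-type library, and Gata3 at 1284 CPM (KO-labelled) and 1712 CPM (wild type). None of 15 IL-7 receptor pathway genes and none of 12 Kit pathway genes with enough UMIs passed 1.5-fold in ILC2, where 7.63% of all genes passed in either direction. Their median log2 ratios were 0.04 (IL-7 receptor) and -0.11 (Kit), beside -0.00 for all genes. Of 7 genes of the neighbour list, Gimap6 passed downward with 216 CPM (KO-labelled) and 330.2 CPM (wild type). The median of that list was -0.15.

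In ILC1 the Tmem176 pair was higher in the KO-labelled library. In the joint ILC1/NK gate, 863 cells in the KO-labelled library and 760 in the wild-type library, Tmem176a stood at 383 CPM (KO-labelled) and 232 CPM (wild type), a log2 ratio of 0.72 (0.53 to 0.91). Tmem176b stood at 652.5 CPM in the KO-labelled library and 378 CPM in the wild-type library, a log2 ratio of 0.79 (0.64 to 0.94). On the higher side, 3.63% of 5128 genes passed 1.5-fold, and 98.1% of genes had a lower ratio than Tmem176a and 98.5% a lower ratio than Tmem176b. Kit stood at 197 CPM in the KO-labelled library and 195 CPM in the wild-type library. Within ILC1, the tissue-resident subset, Tmem176a stood at 495 CPM (KO-labelled) and 323 CPM (wild type), and Tmem176b at 814 CPM (KO-labelled) and 515 CPM (wild type), both past 1.5-fold beside 4.42% of genes. NK cells had far less of the pair, 86.5 CPM (KO-labelled) and 49.97 CPM (wild type) of Tmem176a, from 35 UMIs in the KO-labelled library and 18 UMIs in the wild-type library.

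Il7r in NK cells stood at 816 CPM in the KO-labelled library and 475 CPM in the wild-type library, a log2 ratio of 0.78 (0.51 to 1.06), beside 3.07% of 1498 genes past 1.5-fold upward. The B cell level of Il7r, which gauges free RNA, was 42.8% (KO-labelled) and 71.2% (wild type) of these NK levels. In ILC1 it stood at 2254 CPM (KO-labelled) and 1998 CPM (wild type). Of 16 IL-7 receptor pathway genes with enough UMIs in the ILC1/NK gate, 2 passed upward and none downward, with a median log2 ratio of -0.00 against -0.04 for all genes. They were Crlf2, the partner chain of IL-7R alpha in the TSLP receptor, at 60.3 CPM (KO-labelled) and 34.9 CPM (wild type), and Cish at 84.8 CPM (KO-labelled) and 50.2 CPM (wild type). Cblb, a ubiquitin ligase that restrains receptor signalling, was the 1 of 14 Kit pathway genes that passed, at 127 CPM in the KO-labelled library and 207 CPM in the wild-type library, beside 4.29% of all genes on the lower side and 7.92% in either direction. The Kit pathway median was -0.13.

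Genes of the neighbour list, whose positions were not checked, did not pass with the Tmem176 pair. Of 15 such genes in the files, 8 had enough UMIs in the ILC1/NK gate and none passed 1.5-fold in either direction, with a median log2 ratio of -0.14. Gimap4, a GTPase gene of that list, was highest in NK cells at 1199 CPM (KO-labelled) and 1174 CPM (wild type). It stood at 130.2 CPM (KO-labelled) and 89.4 CPM (wild type) in ILC2. NK cells had the least of the Tmem176 pair among the kidney ILC2, ILC1 and NK gates.

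Across the kidney classes of at least 50 cells, Kit led in ILC2 and the other genes in type 17 T cells. Kit was highest in ILC2 in both libraries. In the KO-labelled library the ILC2 interval overlapped that of ILC1 (231 CPM), and in the wild-type library the ILC2 level lay apart from ILC1 (216 CPM). ILC1/NK cells with neither subset's markers stood at 196 CPM (KO-labelled) and 194 CPM (wild type), and NK cells at 104 CPM (KO-labelled) and 147 CPM (wild type). Il7r was highest in type 17 T cells, gated on Il23r, Il17a and related genes, at 2830 CPM in the KO-labelled library and 3576 CPM in the wild-type library. So was Tmem176a, at 1086 CPM (KO-labelled) and 1215 CPM (wild type), and Tmem176b, at 1299 CPM (KO-labelled) and 1160 CPM (wild type). For these 3 genes type 17 T cells lay apart from the next class in both libraries. B cells, 65 (KO-labelled) and 94 (wild type), give the background: Kit 33.3 CPM (KO-labelled) and 18.1 CPM (wild type), Il7r 349 CPM (KO-labelled) and 338 CPM (wild type), Tmem176a 33.3 CPM (KO-labelled) and 30.2 CPM (wild type), and Tmem176b 74.9 CPM (KO-labelled) and 30.2 CPM (wild type). Kit in CD4, CD8 and type 17 T cells did not lie above the B cell interval in either library.

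A kidney ILC3 gate was found, but it held only 18 cells in the KO-labelled library and 23 in the wild-type library, 13 and 20 of them CCR6-type. Clusters with ILC3 markers, made without the 4 genes, held 0 KO-labelled and 1 wild-type kidney cell. Its Tmem176a level was 1502 CPM (1205 to 1851) in the KO-labelled library and 1473 CPM (1170 to 1831) in the wild-type library. Tmem176b stood at 2254 CPM (KO-labelled) and 1692 CPM (wild type). The intestinal ILC3 gates had 1544 to 1559 CPM of Tmem176a and 1586 to 1693 CPM of Tmem176b. Kit stood at 273 CPM (156 to 444, 16 UMIs) in the KO-labelled library and 473 CPM (309 to 693, 26 UMIs) in the wild-type library, and at 1437 to 1493 CPM in the intestinal ILC3 gates. Il7r stood at 2681 CPM (KO-labelled) and 4093 CPM (wild type). With so few cells, and in other libraries than the intestinal ones, these values are set side by side without a comparison.

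The whole T gate, 4134 cells in the KO-labelled library and 3070 in the wild-type library, had lower Il7r, Tmem176a and Tmem176b in the KO-labelled library. Il7r stood at 1809 CPM in the KO-labelled library and 2793 CPM in the wild-type library, Tmem176a at 273 CPM (KO-labelled) and 697.5 CPM (wild type), and Tmem176b at 386 CPM (KO-labelled) and 699 CPM (wild type). The log2 ratios were -0.63, -1.35 and -0.86, beside 8.49% of 8900 genes past 1.5-fold on the lower side. The make-up of the gate differed along with them. CD8 T cells were 65.0% of it in the KO-labelled library and 21.2% in the wild-type library, and type 17 T cells 5.25% (KO-labelled) and 22.6% (wild type). Summed at equal shares of the subsets, the log2 ratios were -0.31 for Il7r, -0.40 for Tmem176a and -0.01 for Tmem176b. Of 18 IL-7 receptor pathway genes, Socs3, a feedback inhibitor of cytokine signalling, passed upward with 175 CPM (KO-labelled) and 104 CPM (wild type), and Gfi1 downward with 21.3 CPM (KO-labelled) and 41.6 CPM (wild type). Of 17 Kit pathway genes, Ptpn11, the SHP2 phosphatase gene, passed upward with 127 CPM (KO-labelled) and 83.4 CPM (wild type), and Cbl, a ubiquitin ligase gene, downward with 219 CPM (KO-labelled) and 339 CPM (wild type). Of 9 genes of the neighbour list, Gimap7 passed upward with 121 CPM (KO-labelled) and 64.8 CPM (wild type). Upward calls made up 7.21% of all genes in this gate. The medians of these 3 lists were -0.02, 0.01 and 0.08, beside -0.04 for all genes.

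Within type 17 T cells, 217 in the KO-labelled library and 694 in the wild-type library, the log2 ratios were -0.34 for Il7r, -0.16 for Tmem176a and 0.16 for Tmem176b, none past 1.5-fold, where 5.21% of 4204 genes passed upward and 9.75% downward. The 7 genes of the neighbour list with enough UMIs in these cells had a median log2 ratio of -0.76 against -0.11 for all genes. Of them, 5 passed downward beside that 9.75% and none upward. Among them were Gimap9, at 35.02 CPM (KO-labelled) and 84.97 CPM (wild type), and Gimap3, at 341 CPM (KO-labelled) and 667 CPM (wild type), both GTPase genes of immune cells. Of 16 IL-7 receptor pathway genes, 1 passed upward and 2 downward, with a median of -0.13. Of 12 Kit pathway genes, none passed upward and 1 downward, with a median of -0.35.

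CD8 T cells had a Tmem176a level of 131 CPM in the KO-labelled library and 198 CPM in the wild-type library, at -0.59, which passed on the lower side beside 5.24% of 7067 genes. Tmem176b in the same cells stood at 202 CPM (KO-labelled) and 212 CPM (wild type). In CD4 T cells Tmem176a stood at 390.3 CPM (KO-labelled) and 459 CPM (wild type), and Tmem176b at 579 CPM (KO-labelled) and 529 CPM (wild type).

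Kit in the T gate stood at 34.2 CPM in the KO-labelled library and 14.99 CPM in the wild-type library, with 7.21% of genes past 1.5-fold upward. T cells with no Cd4 or Cd8 UMI gave 150 of its 324 UMIs in the KO-labelled library and 47 of its 90 in the wild-type library. Their Kit level was 83.4 CPM (KO-labelled) and 21.7 CPM (wild type), past 1.5-fold beside 5.32% of genes upward. Split by markers after these values were seen, 57.3% of that Kit in the KO-labelled library and 42.6% in the wild-type library lay in cells that also carried at least 2 ILC2 markers. Those cells were 19.97% (KO-labelled) and 12.02% (wild type) of the subset, and their Kit level was 160.3 CPM (KO-labelled) and 66.0 CPM (wild type). Cells with at least 2 ILC1/NK markers had 104 CPM in the KO-labelled library and 18.8 CPM in the wild-type library. In the remaining cells Kit was 20.9 CPM (12.2 to 33.5) in the KO-labelled library (418 cells) and 13.2 CPM (7.97 to 20.7) in the wild-type library (837 cells), intervals that overlap each other. The cells with ILC2 markers had a median of 2999 UMIs (KO-labelled) and 1995 UMIs (wild type), and the remaining cells 1814.5 UMIs (KO-labelled) and 1670 UMIs (wild type). The part of doublets in these values was not tested. In type 17 T cells of the KO-labelled library the 28 Kit UMIs came from 8 cells. That gate also held 42 UMIs of Gata2, a mast cell and progenitor factor, against 0 in wild-type type 17 T cells. Whether both genes lie in the same cells was not tested.

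**Figure D3:**
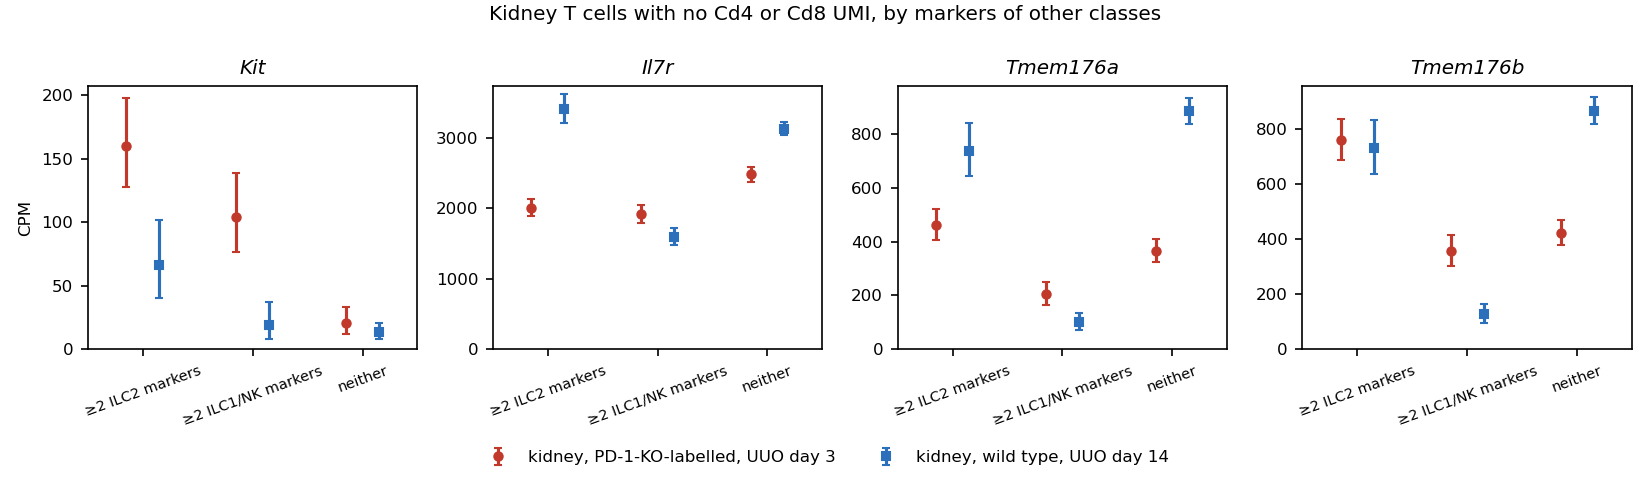
Level in CPM (vertical axis, exact Poisson 95% intervals) of each gene in kidney T cells with no Cd4 or Cd8 UMI, split by whether they carry at least 2 ILC2 markers, at least 2 ILC1/NK markers or neither, for the KO-labelled library and the wild-type library. Kit is highest in cells with ILC2 markers, 160.3 CPM (KO-labelled) and 66.0 CPM (wild type), and Tmem176a in cells with neither set is 366 CPM in the KO-labelled library and 885 CPM in the wild-type library.

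In the whole subset Tmem176a stood at 354 CPM in the KO-labelled library and 710.1 CPM in the wild-type library, past 1.5-fold beside 8.1% of genes downward. In cells with neither set of markers Tmem176a stood at 366 CPM in the KO-labelled library and 885 CPM in the wild-type library, and Tmem176b at 422 CPM (KO-labelled) and 864 CPM (wild type). In cells with ILC1/NK markers the wild-type library was the lower one, with 204 CPM (KO-labelled) and 101 CPM (wild type) of Tmem176a. Tmem176b there stood at 355 CPM (KO-labelled) and 127 CPM (wild type).

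Co-detection was measured in kidney cells without a CD3 UMI, thinned to 1000 UMIs, which left 1629 cells in the KO-labelled library and 1481 in the wild-type library. Of these, only 166 (KO-labelled) and 309 (wild type) also lacked UMIs of T cell receptor constant and Cd79 genes. Kit was seen in 14.7% of the cells in the KO-labelled library and 18.0% in the wild-type library. Il7r was seen in 68.6% (KO-labelled) and 65.9% (wild type), Tmem176a in 28.9% (KO-labelled) and 28.4% (wild type), and Tmem176b in 39.0% (KO-labelled) and 34.2% (wild type). All 4 were seen together in 39 cells, 2.39% (1.71 to 3.26), of the KO-labelled library and in 38 cells, 2.57% (1.82 to 3.505), of the wild-type library. The product of the single shares would give 1.14% (KO-labelled) and 1.15% (wild type), so the observed share was 2.10 (KO-labelled) and 2.23 (wild type) times the product. The unthinned shares were 12.6% (KO-labelled) and 10.5% (wild type).

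For a pair of genes, the ratio to the product cannot exceed 1 divided by the larger single share. Pairs with the widely seen Il7r thus have a lower ceiling and are not set against the Tmem176 pair. Tmem176a and Tmem176b were seen together 1.498 times (KO-labelled) and 1.71 times (wild type) as often as their product. For Kit with Il7r the ratio was 1.08 (KO-labelled) and 1.15 (wild type). Within ILC2 the Tmem176 pair was at 1.22 (KO-labelled) and 1.25 (wild type). Kit with Il7r in ILC2 was at 0.99 (KO-labelled) and 0.96 (wild type). All 4 together in ILC2 stood at 0.98 of the product in both libraries, from 12 cells in the KO-labelled library and 20 in the wild-type library. In the ILC1/NK gate the pair was at 1.54 (KO-labelled) and 1.92 (wild type). This gate joins ILC1 with NK cells, which have less of the pair. Ratios within each of them are not given here, so the joint ratio is not read as that of a single cell type. In intestinal ILC3 the pair was at 1.01 (UUO) and 1.02 (sham), and all 4 were seen in 36.9% (UUO) and 35.8% (sham) of cells, at 0.98 (UUO) and 1.01 (sham) of the product. Tmem176b was seen in 76.6% (UUO) and 74.8% (sham) of these ILC3. It was seen in 46.8% (KO-labelled) and 44.5% (wild type) of ILC2, and in 38.0% and 27.1% of ILC1/NK cells. The ceiling thus differs between gates, and the ILC3 ratios are not set against the kidney ones.

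**Figure D4:**
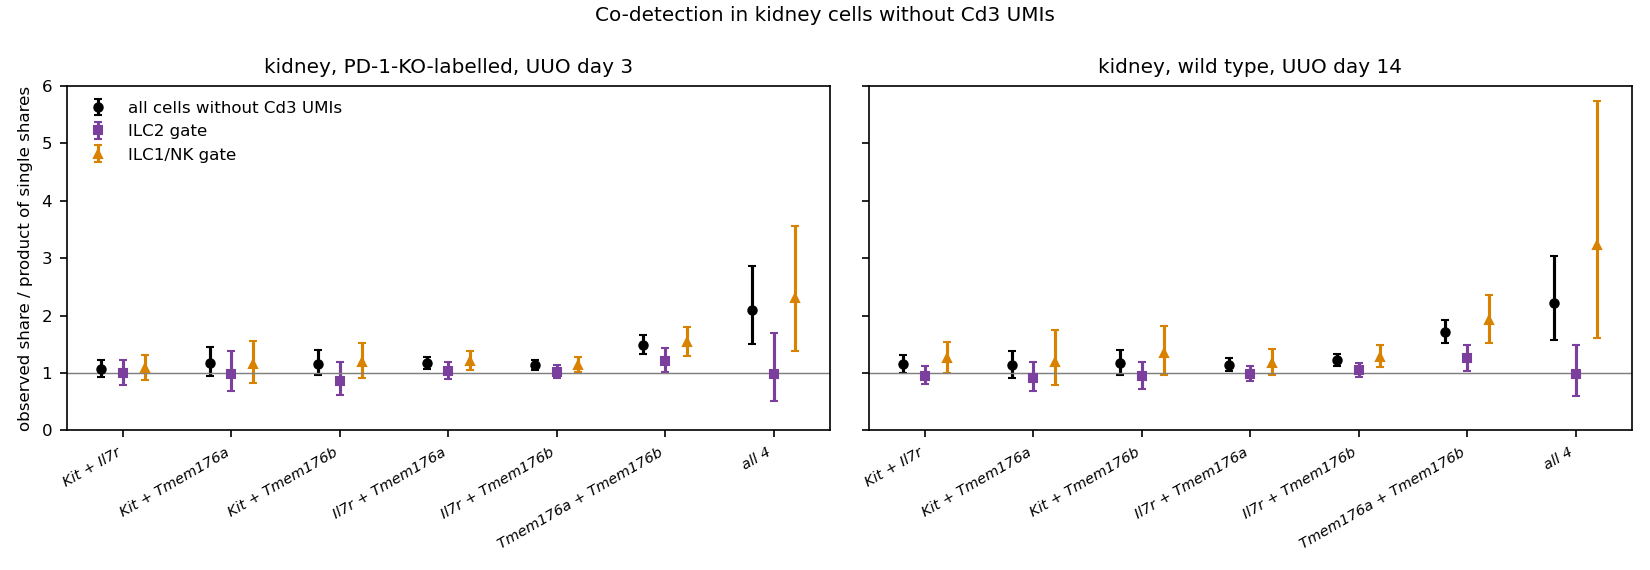
Observed share of kidney cells with UMIs of each gene pair, or of all 4, divided by the product of the single shares (vertical axis; a ratio of 1 is marked by the grey line), for all cells without a CD3 UMI and within the ILC2 and ILC1/NK gates of both kidney libraries, with bars for the exact binomial 95% interval of the observed share over the same product. All 4 together reach 2.10 (KO-labelled) and 2.23 (wild type) over all these cells and 0.98 in ILC2 of both libraries.

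Cells with all 4 genes lay in several gates. In the KO-labelled library 12 of the 39 were ILC2, 11 ILC1, 6 in the ILC1/NK gate with neither subset's markers, 2 NK, 2 ILC3, 1 in the dendritic cell gate and 5 unassigned. In the wild-type library 20 of the 38 were ILC2, 9 ILC1, 4 ILC3, 2 in the ILC1/NK gate with neither subset's markers, 1 in the dendritic cell gate and 2 unassigned. ILC3 were 5.13% of them (0.63 to 17.3) in the KO-labelled library and 10.5% (2.94 to 24.8) in the wild-type library, against 1.10% (KO-labelled) and 1.35% (wild type) of all cells without a CD3 UMI. In the cells with all 4 genes Il1rl1 stood at 369 CPM (KO-labelled) and 856 CPM (wild type), Gata3 at 511 CPM (KO-labelled) and 989 CPM (wild type), and Ncr1, an NK and ILC1 receptor, at 265 CPM (KO-labelled) and 153 CPM (wild type). Eomes, the NK cell factor, gave 1 UMI (KO-labelled) and 0 UMIs (wild type). The mast cell gene Cpa3 gave 4 UMIs from 1 cell in the KO-labelled library and 0 in the wild-type library. Cells with Kit and at least 1 Tmem176 gene numbered 143 (KO-labelled) and 146 (wild type). Of these, 3 and 4 were in the ILC3 gate, 52 and 84 in the ILC2 gate and 48 and 34 were ILC1. That is 2.10% and 2.74% for ILC3, 36.4% and 57.5% for ILC2, and 33.6% and 23.3% for ILC1. Over all cells without a CD3 UMI the shares were 1.10% and 1.35%, 29.0% and 30.2%, and 27.9% and 27.4%.

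The balance within the Tmem176 pair differed between classes. It is given as Tmem176b's share of the UMIs of both genes, which depends on how well each transcript is captured and is read only between classes. In intestinal ILC3 the share was 52.1% after UUO (51.4 to 52.7) and 50.7% after sham surgery (49.9 to 51.4). In kidney type 17 T cells it was 54.5% (52.1 to 56.8) in the KO-labelled library and 48.8% (47.2 to 50.5) in the wild-type library. Kidney ILC1 leaned further to Tmem176b, 62.2% (59.6 to 64.7) in the KO-labelled library and 61.5% (57.7 to 65.2) in the wild-type library. This lean was not particular to ILC1. NK cells were at 61.5% (KO-labelled, 50.8 to 71.6) and 66.7% (wild type, 52.5 to 78.9). ILC1/NK cells with neither subset's markers were at 65.7% (KO-labelled, 61.3 to 69.8) and 62.0% (wild type, 53.7 to 69.8). The 56 ILC1 of the sham intestine were at 53.6% (47.8 to 59.3). Kidney ILC2 were at 57.1% (KO-labelled, 54.8 to 59.4) and 53.4% (wild type, 50.8 to 56.1). In both kidney libraries the ILC1 interval lay above that of type 17 T cells. The share was higher in the KO-labelled library in CD8 T cells too, at 60.6% against 51.7% in the wild-type library. In the KO-labelled library the intervals of CD8 T cells (58.4 to 62.8) and CD4 T cells (59.7%, 56.1 to 63.4) overlapped that of ILC1.

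**Figure D5:**
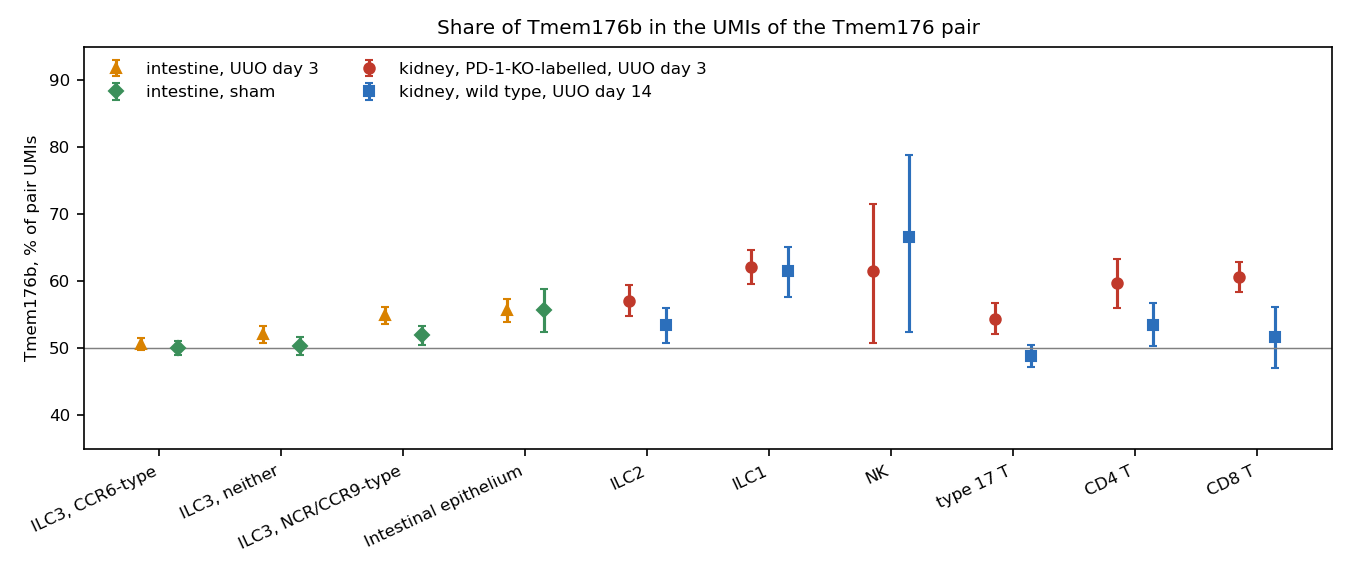
Tmem176b as a percent of the UMIs of both Tmem176 genes (vertical axis, from 35 to 95, grey line at 50) by class and library, with exact binomial 95% intervals. Kidney ILC1 sit at 62.2% (KO-labelled) and 61.5% (wild type), above type 17 T cells at 54.5% (KO-labelled) and 48.8% (wild type) and the intestinal ILC3 subsets at 50.1% to 55.0%. NK cells sit at 61.5% (KO-labelled) and 66.7% (wild type), with wide intervals.

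Genes with the most similar profile were ranked by Pearson's r of log2(CPM + 10) over 29 class profiles of the 4 libraries, for 7387 genes. The profiles share libraries, depth and free RNA, so r is a description only. Tmem176b was the nearest gene to Tmem176a and the reverse, at r = 0.98, followed by Mdfic for Tmem176a and Tnfrsf25 for Tmem176b at 0.93 and 0.90. Nearest to Kit was Gem, a small GTPase gene, at 0.97, with 2104 CPM (UUO) and 2088 CPM (sham) in CCR6-type ILC3. Nearest to Il7r was Rora, a nuclear receptor gene, at 0.91. Kit and Il7r correlated at 0.28, and Il7r with the Tmem176 genes at 0.80 and 0.82.

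Over the 19 kidney profiles alone, chosen after the first ranking was seen, Il7r came closer to the Tmem176 genes, at 0.96 with Tmem176a and 0.94 with Tmem176b. Kit was at 0.08 and 0.20 with them and at 0.05 with Il7r. Its nearest gene there was Rab27b, a gene of granule secretion, at 0.92, with 300.1 CPM in ILC2 of the KO-labelled library and 306 CPM in wild-type ILC2.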

How the data were processed

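Single-cell whole-transcriptome libraries were made with BD Rhapsody, per the labels' protocols. The deposited files hold raw counts of UMIs per gene and cell. Software listed in the submitters' processing notes comprises Seurat, UMI-tools and CASAVA 1.8, with mm10 as the build. How each was used is not stated. The extraction protocol in the labels names another tissue than the samples do. The wild-type kidney matrix was read with the gene list of the KO-labelled library: its gene totals correlate at r = 0.992 with that library in this order and at 0.21 shifted by 1 gene.

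Cells with at least 500 UMIs, 250 genes and at most 20% mitochondrial UMIs were kept (95.0% to 99.3% of barcodes). Gates left 8.85% to 19.3% of cells unassigned. No doublet caller was run. CPM, ratios, shares and co-detection were computed with Python 3.11.15, numpy 2.4.6, scipy 1.17.1 and pandas 2.3.3, and thinning was seeded. A gene was called at a 1.5-fold ratio with at least 100 UMIs over both libraries. The ratio intervals were tried on simulated Poisson counts, the counting error they assume. These had no spread between cells or libraries, so the run cannot speak to such spread. Alternatives included Leiden clusters made without the 4 genes (scanpy 1.11.5, leidenalg 0.10.2). Depth and cell numbers limit precision, and UMI intervals cover counting error only. The 4 genes, the gene lists and the gates were chosen with earlier results of these data known. Genes named are these 4, Pdcd1, up to 5 nearest genes each, and from each gene list at most 4 genes, chosen by largest ratio or level (1 list and 1 gene are not reported here); gate markers, Gata2 and Cpa3 were added after their values were seen.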

Additional observations from a re-analysis of the deposited data

How the results depend on the processing

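No ratio of the 4 genes changed sign under any alternative run: 32 of 32 values in ILC3, 28 of 28 in ILC2, 28 of 28 in ILC1/NK and 24 of 24 in the T gate. These runs reuse the same libraries, so a kept sign does not show that a difference would recur. Some ratios have intervals that span 0, such as Tmem176a in ILC3, 0.013 (-0.026 to 0.053), and Kit in ILC1/NK, 0.015 (-0.21 to 0.24). In the T gate sizes moved. With cluster classes the log2 ratios of the KO-labelled library over the wild-type library were 0.36 for Kit, -1.71 for Tmem176a and -1.41 for Tmem176b. As a mean of per-cell CPM they were -0.66 for Il7r, -1.71 for Tmem176a and -1.31 for Tmem176b. Without the top 5% of cells by UMIs they were -0.59, -1.65 and -1.26 for the same genes, and Il7r was -0.59 when centred on the median ratio. At equal subset shares, chosen after seeing the data, they were 1.62 for Kit, -0.31 for Il7r, -0.40 for Tmem176a and -0.0083 for Tmem176b. Co-detection shares followed depth. Without thinning, in the KO-labelled library and then the wild-type library, Kit with Il7r was at 23.9% and 22.4%, Kit with Tmem176b at 18.2% and 16.0%, and the Tmem176 pair at 35.5% and 29.4%. At 500 UMIs they were at 5.53% and 6.38%, 2.71% and 2.09%, and 6.60% and 6.01%. In wild-type cells also without T cell receptor constant and Cd79 UMIs they were 18.1%, 10.0% and 22.7%. The median share over classes was 42.1% at 1000 UMIs, 65.7% without thinning and 25.2% at 500 UMIs. Genes past 1.5-fold numbered 403 in ILC3, 305 in ILC2 and 406 in ILC1/NK. With at least 50 UMIs they were 682, 747 and 779, and with at least 200 UMIs 207, 112 and 196. No paired analysis was possible because each group has 1 library. Some levels rest on few UMIs: Tmem176a in NK cells on 35 (KO-labelled) and 18 (wild type), and Kit in the kidney ILC3 gate on 16 and 26.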
